A study of Mus musculus with 96 samples.

Results

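The early effect of the Ncf1 mutation on the spleen was measured in 24 male mice of a collagen induced arthritis model, 15 days after immunisation. These 24 spleen arrays, 1 per mouse, were chosen by their labels for tissue, day and genotype from the 96 arrays of the study, which also hold blood and a later day. In 12 mice the strain was C57BL/10.Q/rhd.Ncf1m1J (Ncf1 mutant), and in 12 it was C57BL/10.Q/rhd (wild type). All 24 mice had been immunised, without unimmunised controls here, so every difference below is between genotypes after immunisation. Arthritis scores of the mice were not used. Mice were split evenly, 6 per genotype, over experiments I and II, which isolated spleen RNA with different kits (an Ambion kit in I, RNAlater and a Qiagen kit in II), and experiment was a term of the model. The mutation is inherited and so carried by all cells of the mutant mice, and the labels give no ages. Total spleen was used without selection of cells, so that fewer cells of a type and less RNA per cell cannot be told apart. Levels are log2 intensity, differences are Ncf1 mutant minus wild type on that scale ± standard error from limma, and a call required an adjusted p (Benjamini-Hochberg, over 16593 genes) under 0.05.

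Ncf1 encodes a cytosolic subunit of the NADPH oxidase, with which neutrophils and macrophages make superoxide. On activation Ncf1, Ncf4 and a Rac GTPase join the membrane pair Cybb and Cyba. The mouse spleen filters blood, holds T and B lymphocytes in its white pulp and keeps blood cell formation in its red pulp after birth, where red cell, granulocyte and platelet precursors divide and mature. Granule proteins of neutrophils are made in sequence, those of primary granules in promyelocytes and those of secondary granules in later precursors, while mature neutrophils make few of them.

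Before the comparison, 2 sets of arrays stood apart. In 3 mice of experiment I the mean of 33 exocrine pancreas genes lay more than 1 log2 unit above that of the median array. The values above it were 1.48 in Ncf1 mutant mouse 11, and 6.24 in wild type mouse 14 and 1.28 in wild type mouse 16. Trypsinogen Try4 reached 14.43 in wild type mouse 14, against 5.79 to 6.52 in the 21 mice outside this set, and the pancreatic lipase cofactor Clps reached 14.78. The threshold did not separate all transcripts, since Clps reached 9.53 in 1 of the 21 mice under it, against 9.49 in Ncf1 mutant mouse 11 and 9.10 in wild type mouse 16. The next highest of the 24 was Ncf1 mutant mouse 14 of experiment II, at 0.63 above the median array. Of the islet genes, Ins2 (5.98 to 6.35, highest in wild type mouse 14) and Gcg (5.75 to 6.05) lay below the array median of 6.36 in all 24 mice and could not be read. Iapp lay between 5.92 and 7.13 and was highest in wild type mouse 23 of experiment II. A further 3 mice of experiment I, Ncf1 mutant mice 21 and 23 and wild type mouse 22, lay apart on the first principal component (38.5% of the variance). They correlated at 0.990 to 0.992 with each other and at 0.936 to 0.973 with the other mice of experiment I. In their mean 602 genes were more than 1 log2 unit higher and 356 more than 1 lower than in the other 9 mice of that experiment, and the median of the B cell receptor genes was 0.58 lower. Spleen identity was checked in all 24 mice. The B cell gene Cd79b had a median level of 13.42, the red pulp macrophage genes Slc40a1 and Vcam1 had 13.66 and 12.88, and the T zone chemokine Ccl21a had 12.11. Probes for Cd8a and Tlx1 lay below the array median in all mice, so these 2 genes could not be read.

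In Ncf1 mutant spleens 197 genes were higher (1.19% of those tested) and 48 were lower (0.289%). The median difference was 0.67 among the genes called higher and -0.37 among those called lower, against -0.01 over all genes. Over all 16593 genes 7682 differences were above 0 and 8911 below, the background for the sign counts of the groups below. The genes called higher were led by granule proteins of neutrophil precursors, red cell membrane proteins and genes of dividing cells, and the genes called lower held Ncf1 itself and several genes of T cells. Of the higher genes 29 rose by more than 1 log2 unit, and of the lower genes 9 fell by more than 0.5. The calls were shallow: 5 genes had an adjusted p under 0.02, 240 lay between 0.02 and 0.05, and 556 lay under 0.1. Without the 3 mice that held pancreas transcripts 1 gene was called, Ncf1, so each group call below other than that of Ncf1 was lost without these mice. All 245 differences kept their sign, which their choice with most of the same mice favours.

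Ncf1 separated the genotypes in each experiment. In experiment I its level was between 6.11 and 6.54 (median 6.37) in the 6 Ncf1 mutant spleens, against 7.01 to 7.41 (median 7.30) in the 6 wild type spleens. In experiment II it was between 6.39 and 6.72 (median 6.48) in Ncf1 mutant spleens, against 7.04 to 7.67 (median 7.48) in wild type spleens. The genotypes thus did not overlap in either experiment. Ncf1 fell by 0.90 ± 0.07 on the log2 scale (wild type 1.86-fold over mutant, a lower bound where mutant values lie at background, adjusted p = 2.6e-08), and by 0.96 ± 0.07 without the 3 mice with pancreas transcripts (adjusted p = 8.81e-08). The mutant medians lay close to the array median of 6.36. The other Ncf1 probe, ILMN_1228585, averaged 5.88 in Ncf1 mutant and 5.89 in wild type spleens, both below the array median.

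Of the 16 oxidase genes measured, 1 was lower, Ncf1, and 0 were higher. Of the membrane subunits, Cyba gave a difference of -0.12 ± 0.19, and the probe of Cybb lay between 5.78 and 6.20 in all 24 mice, below the array median, so that Cybb could not be read. Ncf4, another cytosolic subunit, gave -0.02 ± 0.11, and Rac2, the Rac GTPase of blood cells, gave -0.34 ± 0.21. Prkcd, a kinase that phosphorylates the Ncf1 protein, gave -0.23 ± 0.10 (adjusted p = 0.296), and the proton channel Hvcn1 gave -0.38 ± 0.14 (adjusted p = 0.189). Probes of Rap1a, Nox1, Nox4 and Duox2 also lay below the array median in all 24 mice and could not be read. The median over the 16 genes was -0.09, with 5 differences above 0 and 11 below. Those above 0 were of Cybb, Rap1a, Nox1, Nox4 and Duox2, so each oxidase gene that could be read lay below 0.

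**Figure D1:**
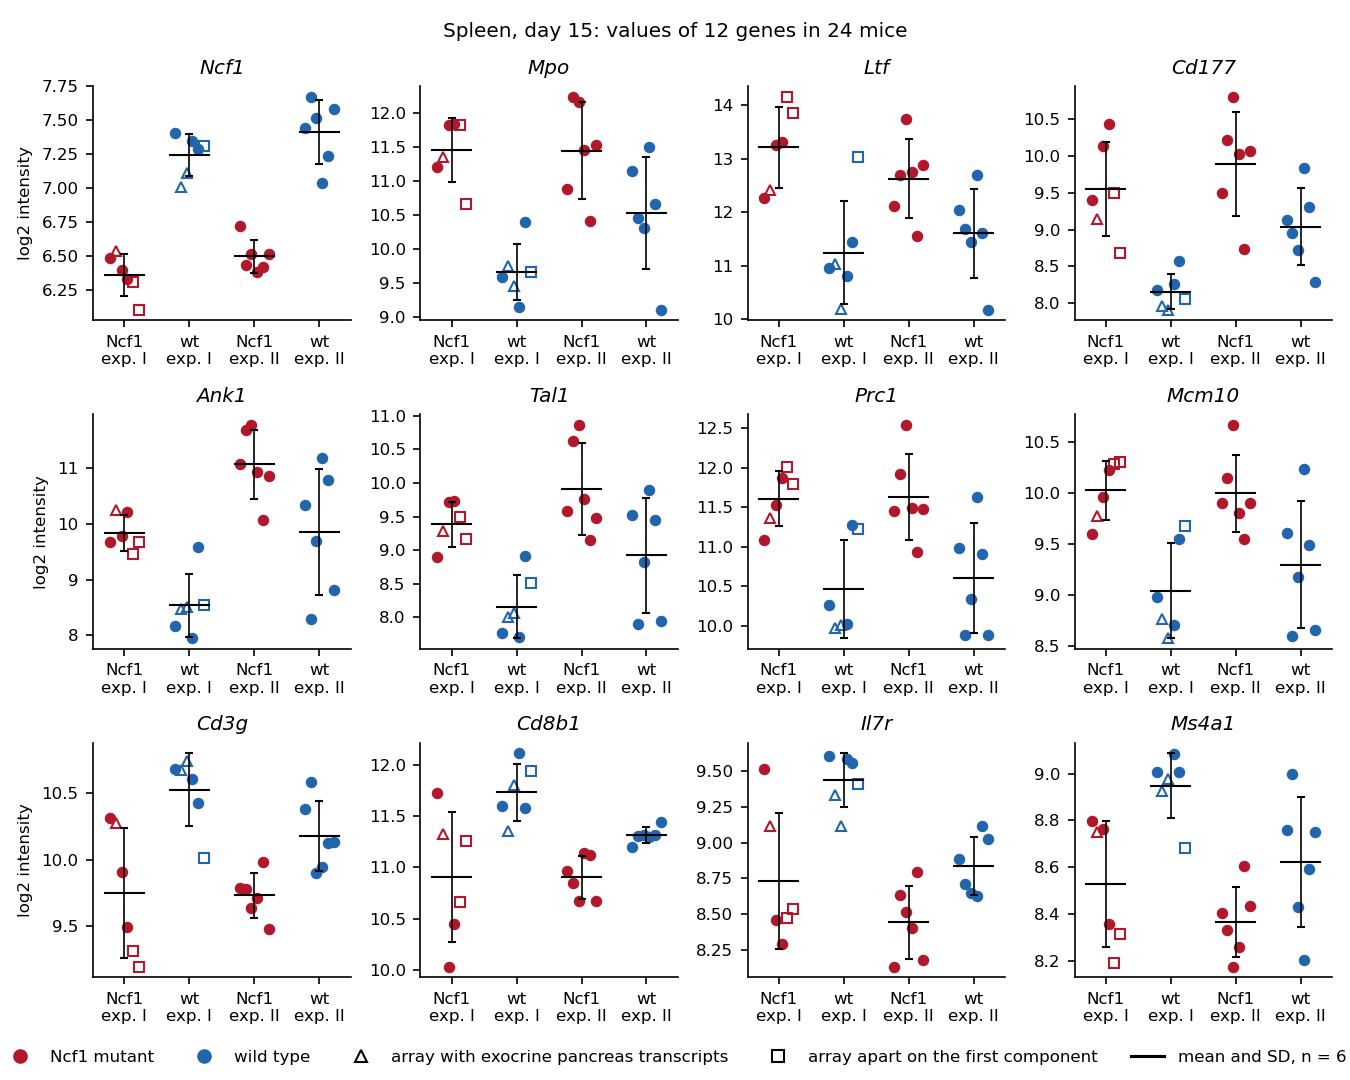
Log2 intensity of 12 genes in each of the 24 spleens, with Ncf1 mutant (red) left of wild type (blue) in each experiment, the mean and SD of 6 mice in black, triangles for mice with exocrine pancreas transcripts and squares for mice apart on the first principal component. Ncf1 does not overlap between genotypes in either experiment, while Mpo, Ltf, Ank1 and Prc1 are spread widely among wild type mice of experiment II.

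Granule genes of neutrophil precursors had the largest median difference of the 31 gene groups. Of 12 genes listed as primary granule genes 7 were higher and 0 lower, with a median difference of 0.97. The list includes Hp and the transcription factor Cebpe, so its count and median are not those of primary granule proteins alone. Mpo, the myeloperoxidase of primary granules, had levels of 10.66 to 11.84 (median 11.58) in Ncf1 mutant spleens of experiment I, against 9.14 to 10.39 (median 9.62) in wild type spleens. In experiment II Mpo had levels of 10.41 to 12.24 (median 11.49) in Ncf1 mutant spleens, against 9.10 to 11.49 (median 10.56) in wild type spleens. The genotypes were thus separate for Mpo in experiment I and overlapped in experiment II. Mpo was 2.56-fold higher (1.36 ± 0.25, adjusted p = 0.0243), by 1.79 ± 0.24 (experiment I) and 0.92 ± 0.38 (experiment II). The serine proteases stored with it rose too: Prtn3 by 1.51 ± 0.31, Ctsg by 1.40 ± 0.33 and Elane by 1.25 ± 0.27. Hp, which encodes haptoglobin, rose by 1.01 ± 0.21. Cebpe, a transcription factor that granule genes need late in granulocyte maturation, rose by 0.94 ± 0.20 (adjusted p = 0.0278). Without the 3 mice with pancreas transcripts the differences were 1.29 ± 0.29 for Mpo, 1.47 ± 0.35 for Prtn3 and 0.90 ± 0.22 for Cebpe, and the adjusted p of each was between 0.145 and 0.147.

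Of 17 secondary granule genes 8 were higher and 0 lower, with a median of 0.73, and 16 of the 17 differences were above 0. Ltf, which encodes the iron binding protein lactoferrin, had levels of 12.27 to 14.16 (median 13.28) in Ncf1 mutant spleens of experiment I, against 10.19 to 13.03 (median 10.998) in wild type spleens. In experiment II Ltf had 11.56 to 13.74 (median 12.72) in Ncf1 mutant spleens, against 10.18 to 12.70 (median 11.65) in wild type spleens. Wild type mouse 22 of experiment I, at 13.03, was among the mice that stood apart. Ltf rose by 1.49 ± 0.33 (adjusted p = 0.0307), and by 1.40 without those 3 mice (adjusted p = 0.031). Leaving out instead the mice with pancreas transcripts gave 1.35 ± 0.34 (adjusted p = 0.155), and a group median of 0.73 with 0 called. Lcn2, a siderophore binding protein, rose by 1.38 ± 0.31, and Camp, the precursor of cathelicidin, rose by 1.09 ± 0.24. Cd177, a neutrophil surface protein, rose by 1.12 ± 0.22, Itgb2l, a beta 2 integrin like chain, by 0.89 ± 0.19 and Ltb4r1, the receptor of leukotriene B4, by 0.73 ± 0.14.

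Genes of mature neutrophils had a smaller median. Of 18 such genes 6 were higher, and the median was 0.35 (0.75 for experiment I, 0.05 for experiment II). S100a9, a calcium binding protein abundant in neutrophils and monocytes, rose by 0.96 ± 0.22, Trem3, a receptor of myeloid cells, by 0.91 ± 0.19 and Fpr2, a receptor of formylated peptides, by 0.82 ± 0.19. With the mice of the pancreas set left out the group median was 0.34 and 0 genes were called. Cxcr1, a chemokine receptor, had a median of 7.34 (6.64 to 7.83) in Ncf1 mutant and 6.58 (6.33 to 6.76) in wild type spleens of experiment I, against 6.52 (6.38 to 6.63) in Ncf1 mutant and 6.54 (6.42 to 6.74) in wild type spleens of experiment II. Its genotype difference was thus 0.75 ± 0.17 for experiment I and -0.03 ± 0.06 for experiment II, and the difference between experiments did not pass (adjusted p = 1). Among genes of eosinophils, basophils and mast cells 2 of 17 were higher: Prg2, the eosinophil major basic protein (0.98 ± 0.22), and Hdc, the enzyme that makes histamine (0.87 ± 0.22). The group as a whole did not rise, with a median of -0.001, 8 differences above 0 and 9 below, and 1.19% of all genes were higher. Hdc differed by 1.56 ± 0.28 (experiment I) and 0.18 ± 0.17 (experiment II). Of 22 monocyte genes 4 were higher, among them Tnfaip2 (0.61 ± 0.12), F13a1, a coagulation factor subunit (0.63 ± 0.15), and Chil3, a chitinase like protein (0.98 ± 0.25). The median of the monocyte genes was 0.02 (0.07 for experiment I, -0.02 for experiment II), and 9 of the 22 had the same sign in both experiments, against 61.5% of all genes. In these last 2 groups 0 genes were called when the pancreas set was left out.

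Red cell precursor genes had medians above 0 in both experiments. Of 20 erythroid regulators 7 were higher and 0 lower, and the median was 0.60 for experiment I and 0.53 for experiment II. Tal1, a transcription factor of early blood and red cell precursors, had levels of 8.90 to 9.74 (median 9.39) in Ncf1 mutant spleens of experiment I, against 7.70 to 8.92 (median 8.03) in wild type spleens. In experiment II Tal1 had 9.15 to 10.86 (median 9.67) in Ncf1 mutant spleens, against 7.89 to 9.90 (median 9.14) in wild type spleens. Tal1 rose by 1.11 ± 0.23, Nfe2, a transcription factor of red cell and platelet precursors, by 0.99 ± 0.21, the GATA cofactor Zfpm1 by 0.87 ± 0.19 and the repressor Gfi1b by 0.90 ± 0.22. Ermap, a red cell surface protein that carries a blood group, rose by 1.12 ± 0.29. Of 16 red cell membrane genes 6 were higher and 0 lower, with a median of 0.64. Dmtn rose by 1.32 ± 0.29, Ank1 by 1.26 ± 0.27 and Tmod1 by 1.03 ± 0.23, which encode dematin, ankyrin and tropomodulin of the membrane skeleton. The blood group gene Kel rose by 1.21 ± 0.28. Of 19 genes of haem synthesis and erythroid iron 6 were higher, among them the transferrin receptor Tfrc (1.00 ± 0.23), the mitochondrial glycine carrier Slc25a38 (0.67 ± 0.15) and the transporters Abcb10 (0.94 ± 0.22) and Abcb6 (0.78 ± 0.18). Without the 3 mice with pancreas transcripts the medians of these 3 groups were 0.55, 0.60 and 0.54 and no member was called. In platelet and megakaryocyte genes 1 of 20 was higher, Vwf (0.51 ± 0.10), the von Willebrand factor, and 18 of 20 differences were above 0. Its median of 0.27 was 0.22 without the mice of the pancreas set, with 0 called, and 0.14 without the 3 mice that stood apart.

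Dividing cell genes were higher as well. Of 26 DNA replication genes 10 were higher and 0 lower, and 25 of the 26 differences were above 0, with a median of 0.54. Of 35 mitosis genes 12 were higher and 0 lower, with a median of 0.49. Prc1, a protein that bundles microtubules of the spindle midzone, had levels of 11.08 to 12.01 (median 11.66) in Ncf1 mutant spleens of experiment I, against 9.98 to 11.27 (median 10.15) in wild type spleens. In experiment II Prc1 had 10.93 to 12.54 (median 11.48) in Ncf1 mutant spleens, against 9.88 to 11.62 (median 10.63) in wild type spleens. Prc1 rose by 1.09 ± 0.21 (2.12-fold, adjusted p = 0.0243), the mitotic kinase Aurka by 0.98 ± 0.21 and the kinesins Kif2c and Kif11 by 0.79 ± 0.16 and 0.76 ± 0.16. Among replication genes Mcm10 and Cdc45, which start and drive the replicative helicase, rose by 0.84 ± 0.18 and 0.77 ± 0.17. Rrm1, a subunit of ribonucleotide reductase, rose by 0.84 ± 0.19, and the histone chaperone Chaf1a by 0.70 ± 0.16. With the 21 mice under that threshold the medians were 0.49 for replication and 0.48 for mitosis genes with 0 called, and Prc1 differed by 1.00 ± 0.23 (adjusted p = 0.145). These genes are shared by all dividing cells, and which cells divided was not measured.

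The promoters of called genes that moved together were read for known motifs. RefSeq promoters of build GRCm38.p6, 250 bases before to 50 after the start of the gene, were matched for 13335 of the measured genes and 189 of the 245 called genes, with 1 promoter per gene. In 20 called replication and mitosis genes 14 promoters (70%) held the cell cycle homology region TTTGAA and 17 (85%) held CCAAT, on either strand, against 15.4% and 38.8% of all 13335 promoters. In 13 called genes of the primary and secondary granule lists 4 promoters (30.8%) held TTNNGCAA, a form of the C/EBP site, against 9.98% of all, and 4 held TTTGAA. The GATA site AGATAA stood in 12.5% of 16 called red cell gene promoters, against 9.75% of all. GCGGGAA, an E2F site, stood in 15% of the 20 replication and mitosis promoters, against 6.37% of all and 16.6% of the 157 promoters of genes called higher. These shares describe letters in a window and no binding. The promoters of the 4 mitosis genes named above are shown because they hold the motif of most of that group, with TTTGAA and CCAAT on either strand in capitals, at chr7:80294201-80294500 (plus strand), chr4:117178723-117179022 (minus), chr19:37376132-37376431 (plus) and chr2:172370521-172370820 (minus).
Prc1: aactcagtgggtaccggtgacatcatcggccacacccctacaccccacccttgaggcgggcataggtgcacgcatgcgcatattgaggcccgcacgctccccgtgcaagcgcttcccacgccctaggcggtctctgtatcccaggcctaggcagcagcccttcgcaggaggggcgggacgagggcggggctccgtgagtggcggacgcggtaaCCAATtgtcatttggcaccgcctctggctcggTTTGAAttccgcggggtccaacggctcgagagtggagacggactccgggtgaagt
Kif2c: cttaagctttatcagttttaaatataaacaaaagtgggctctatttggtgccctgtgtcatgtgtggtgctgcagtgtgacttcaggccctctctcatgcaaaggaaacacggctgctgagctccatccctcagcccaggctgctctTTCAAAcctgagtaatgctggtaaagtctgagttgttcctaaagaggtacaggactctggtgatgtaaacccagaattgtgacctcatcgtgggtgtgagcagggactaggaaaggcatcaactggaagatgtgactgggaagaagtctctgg
Kif11: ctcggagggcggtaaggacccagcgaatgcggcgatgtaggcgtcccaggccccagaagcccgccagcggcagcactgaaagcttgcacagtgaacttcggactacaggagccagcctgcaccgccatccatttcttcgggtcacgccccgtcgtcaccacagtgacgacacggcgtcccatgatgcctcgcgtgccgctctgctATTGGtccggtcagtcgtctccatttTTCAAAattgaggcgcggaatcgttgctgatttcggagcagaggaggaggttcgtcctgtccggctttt
Aurka: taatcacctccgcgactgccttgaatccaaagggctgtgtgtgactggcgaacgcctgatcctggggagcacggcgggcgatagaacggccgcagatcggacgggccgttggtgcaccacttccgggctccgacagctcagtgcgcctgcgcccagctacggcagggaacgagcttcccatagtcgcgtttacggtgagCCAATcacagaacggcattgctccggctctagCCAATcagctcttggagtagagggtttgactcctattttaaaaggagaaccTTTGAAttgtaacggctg
In Prc1, Kif11 and Aurka CCAAT or its reverse complement precedes TTTGAA or its reverse complement near the start of the gene, and in Kif2c the reverse complement of TTTGAA stands further upstream with no CCAAT in this window. The promoters of the granule genes Ltf, at chr9:111019042-111019341 (plus strand), and Lcn2, at chr2:32387690-32387989 (minus), show the C/EBP form in capitals.
Ltf: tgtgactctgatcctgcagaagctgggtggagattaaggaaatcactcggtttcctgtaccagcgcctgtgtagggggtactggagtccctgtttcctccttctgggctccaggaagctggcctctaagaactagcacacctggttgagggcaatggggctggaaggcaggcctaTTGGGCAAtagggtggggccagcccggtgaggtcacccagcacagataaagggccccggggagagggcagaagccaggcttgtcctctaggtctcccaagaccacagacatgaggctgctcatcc
Lcn2: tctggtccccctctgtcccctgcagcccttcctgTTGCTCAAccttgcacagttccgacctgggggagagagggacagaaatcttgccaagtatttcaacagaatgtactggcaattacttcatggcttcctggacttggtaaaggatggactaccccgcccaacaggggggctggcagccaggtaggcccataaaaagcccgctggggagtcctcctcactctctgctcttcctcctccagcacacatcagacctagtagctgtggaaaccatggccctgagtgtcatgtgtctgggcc

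Genes of T cells and B cells had medians below 0, and 6 of them were called lower. Of 21 T cell receptor and coreceptor genes 2 were lower and 0 higher, 17 differences were below 0, and the median was -0.30. Cd3g, a chain of the T cell receptor complex, had levels of 9.20 to 10.32 (median 9.70) in Ncf1 mutant spleens of experiment I, against 10.01 to 10.75 (median 10.64) in wild type spleens. In experiment II Cd3g had 9.48 to 9.99 (median 9.75) in Ncf1 mutant spleens, against 9.90 to 10.59 (median 10.13) in wild type spleens. Cd3g fell by 0.61 ± 0.13 (adjusted p = 0.0264). Cd8b1, a chain of the CD8 coreceptor, had a median of 10.96 (10.03 to 11.72) in Ncf1 mutant and 11.70 (11.36 to 12.11) in wild type spleens of experiment I. In experiment II its ranges did not overlap, at 10.67 to 11.14 in Ncf1 mutant and 11.20 to 11.45 in wild type spleens. Cd8b1 fell by 0.62 ± 0.14 (adjusted p = 0.0349). Leaving out the 3 mice with pancreas transcripts gave -0.59 ± 0.13 for Cd3g and -0.66 ± 0.16 for Cd8b1 (adjusted p = 0.145 for each), and a group median of -0.33 with 0 called.

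Among 25 genes of T cell costimulation and homing 3 were lower: Il7r, the receptor of interleukin 7 (-0.55 ± 0.12), Cd28, the costimulatory receptor (-0.45 ± 0.10), and Ccr7, the receptor that guides T cells into the white pulp (-0.26 ± 0.07). The median was -0.24, and -0.22 with 0 called when the pancreas set was left out. Klrd1, the CD94 receptor of NK cells and some CD8 T cells, fell by 0.51 ± 0.10 (adjusted p = 0.0243) and was the 1 called gene of 22 in the NK and cytotoxic group, whose median was -0.08 with 8 differences above 0. In B cell receptor and identity genes all 21 differences were below 0, with a median of -0.34, and 1 gene was called lower, Ms4a1, which encodes CD20 (-0.34 ± 0.09, adjusted p = 0.0487). The mice that stood apart had the lowest means of these B cell genes in experiment I within their genotype, at 9.05 and 9.15 in the Ncf1 mutants and 9.43 in the wild type mouse, and without those mice their median was -0.24 and the adjusted p of Ms4a1 was 0.065. Without the mice of the pancreas set the adjusted p of Ms4a1 was 0.183 and the median was -0.31, and 0 of these and of the NK genes were called. Of 22 genes of mature and marginal zone B cells 0 were called, while 9 had an unadjusted p under 0.05 (12.2% of all genes did), led by Cd83 (-0.45 ± 0.14, adjusted p = 0.0901). MHC class II genes gave 0 of 19 called, with 1 at an unadjusted p under 0.05 and a median of -0.14, which was -0.08 without the 3 mice that stood apart, where MHC class II genes were 0.68 lower than in the other mice of experiment I.

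Other genes that fell belong to several cell types. Tcf21, a transcription factor of spleen mesenchyme, fell by 0.61 ± 0.14, and Ccn2, a matrix protein made by stromal cells, by 0.57 ± 0.13. In the whole stroma and endothelium group 0 of 34 genes were called, 10 had an unadjusted p under 0.05, 1 of them above 0, against 12.2% of all genes, and the median was -0.15. Tsc22d3, a glucocorticoid induced regulator, fell by 0.66 ± 0.15. Gpr183, the oxysterol receptor that positions B cells, T cells and dendritic cells, fell by 0.45 ± 0.12. Cd207, which encodes langerin, a lectin of some dendritic cells, had levels of 6.27 to 6.59 in Ncf1 mutant and 6.57 to 7.04 in wild type spleens of experiment I. In experiment II Cd207 had 6.08 to 6.69 in Ncf1 mutant and 6.67 to 6.91 in wild type spleens, and it fell by 0.38 ± 0.06 (adjusted p = 0.0159). Its mutant levels spread around the array median of 6.36, near background. Of 24 genes in the dendritic cell group 1 was lower, Cox6a2 (-0.59 ± 0.15), against 0.289% of all genes. The median of that group was -0.08, with 5 genes lower at an unadjusted p under 0.05, and 0 were called without the mice of the pancreas set. Ephx1, an epoxide hydrolase, fell by 0.47 ± 0.10 and was the 1 called gene of 31 in the antioxidant and NRF2 group, whose median was 0.06.

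Interferon genes gave 2 calls. Group medians were 0.02 for type I and 0.11 for interferon gamma and GTPase genes, against -0.01 over all genes. Of 40 type I interferon genes 2 were higher and 0 lower, against 1.19% of all genes higher: Oasl2, an oligoadenylate synthetase like protein (0.86 ± 0.18), and Isg15, a ubiquitin like modifier (0.76 ± 0.16). At an unadjusted p under 0.05 in limma, 9 of the 40 were higher and 1 lower, against 1058 higher and 973 lower of all 16593 genes. With the 3 mice of the pancreas set left out 0 were called. Among 31 genes of interferon gamma and GTPases 0 were called and 11 had an unadjusted p under 0.05, 10 of them above 0, against 12.2% of all genes, led by Gbp7 (0.37 ± 0.10, adjusted p = 0.0748). In the inflammatory cytokine and NF-kB group 2 of 36 were higher, Tnfaip2 and Saa3, an acute phase protein (0.86 ± 0.22), with a median of -0.02, and 0 were called without the mice of the pancreas set. In plasma cell genes and in genes of red pulp and marginal zone macrophages 0 of 22 were called in each group, with 2 and 5 at an unadjusted p under 0.05, against 12.2% of all genes. The marginal zone macrophage lectin Cd209b gave -0.65 ± 0.17 (adjusted p = 0.0556).

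**Figure D2:**
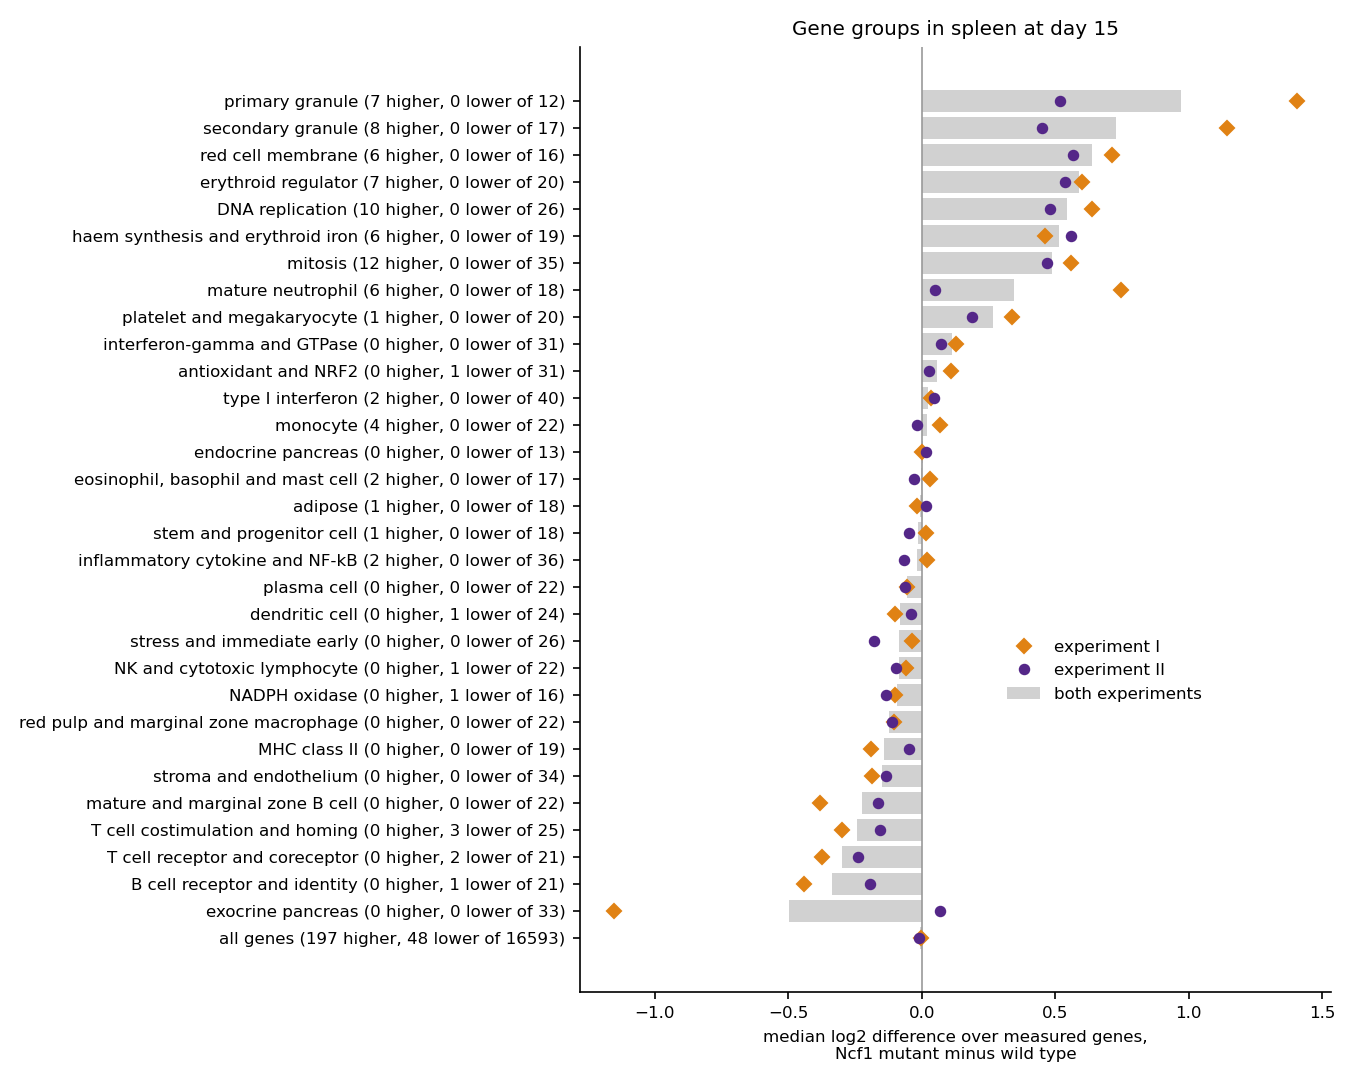
Median log2 difference (Ncf1 mutant minus wild type) over the measured genes of each of 31 groups and of all genes, as bars for both experiments together, diamonds for experiment I and circles for experiment II, with counts of genes called higher and lower. Granule, red cell and division groups lie at medians of 0.49 to 0.97, T and B cell receptor groups at -0.30 and -0.34, and the exocrine pancreas group at -1.15 in experiment I and 0.07 in experiment II.

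Mice of 1 genotype differed among themselves in these groups, and the same mice lay at the ends of several. For the mean level of the mitosis genes, Ncf1 mutant mice ran between 7.89 and 8.47 (experiment I) and between 7.77 and 8.53 (experiment II), and wild type mice between 7.46 and 8.05 (experiment I) and between 7.34 and 8.11 (experiment II). Ncf1 mutant mouse 11 of experiment II was the highest and mouse 14 the lowest mutant of that experiment for mitosis, DNA replication, erythroid regulator, red cell membrane and haem genes. Wild type mouse 18 (experiment I) and wild type mouse 22 (experiment II) were the highest of their genotype and experiment in the same 5 groups. For secondary granule genes the mean was 8.65 to 9.41 in Ncf1 mutant and 7.88 to 8.40 in wild type spleens of experiment I, without overlap, and 8.08 to 9.27 in Ncf1 mutant and 7.66 to 8.59 in wild type spleens of experiment II, with overlap.

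The 2 experiments were next compared as separate tests of the same difference. Each experiment alone called 1 gene, Ncf1 (-0.88 ± 0.09, adjusted p = 0.00441 in experiment I, and -0.92 ± 0.10, adjusted p = 0.00616 in experiment II). At an unadjusted p under 0.05 experiment I had 1453 genes (8.76%) and experiment II 1115 (6.72%). Genes chosen in 1 experiment were then read in the other, whose mice had no part in the choice. Of 132 genes with an unadjusted p under 0.001 in experiment I, 128 (97.0%) had the same sign in experiment II, against 61.5% of all genes, and 66 (50%) also had an unadjusted p under 0.05 there. Of 19 genes with an unadjusted p under 0.001 in experiment II, 19 had the same sign in experiment I and 9 had an unadjusted p under 0.05. Genes are not independent replicates, so these shares carry no test.

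All 245 called genes had the same sign in both experiments, which a fit to both favours. For 207 of the 245 the size was larger in experiment I, and the median size was 0.64 in that experiment, against 0.49 in the other. Across all genes the differences of the experiments correlated with r = 0.68 and rho = 0.43. The test of the difference between experiments called 0 genes with limma. An unadjusted p under 0.05 was found for 17 of the 245 called genes, a larger share than that threshold. Over all 16593 genes it was found for 335, a smaller share than that threshold. The smallest of these p-values belonged to Nodal, Chmp4c, Cxcr1, Kcnh6 and Clec4e (adjusted p = 1 for each), and Nodal lay below the array median in all 24 mice. Clec4e, a lectin receptor of myeloid cells, differed by 0.62 (experiment I) and -0.05 (experiment II).

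**Figure D3:**
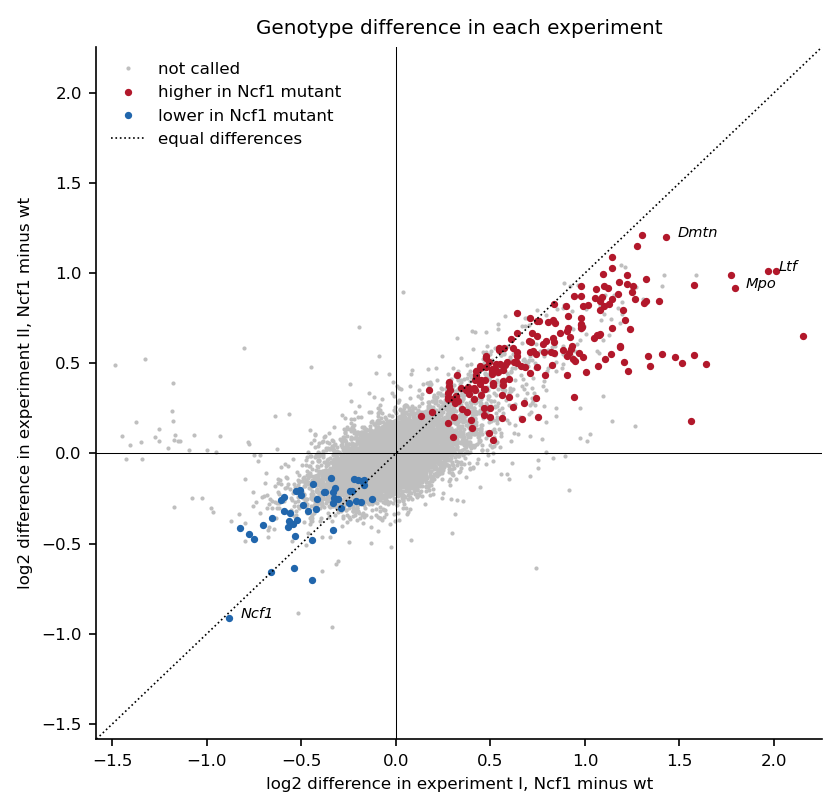
Log2 difference (Ncf1 mutant minus wild type) of each gene in experiment I on the horizontal and in experiment II on the vertical axis, with genes called higher in red, called lower in blue and others in grey, and a dotted line of equal differences. For 207 of the 245 called genes the size is larger in experiment I, with Mpo at 1.79 and 0.92, while Ncf1 lies near the line of equal differences.

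Dependence on the 3 mice with exocrine pancreas transcripts was tested by leaving them out. With 21 mice 0 genes were called higher (0%) and 1 was called lower (0.00603%), Ncf1. The next smallest adjusted p was 0.0829, for Cd207, and 1584 genes had an unadjusted p under 0.05, against 2031 with all 24 mice. The differences themselves moved little. All 245 genes kept their sign and had an unadjusted p under 0.01 without the 3 mice, and each difference was between 0.70 and 1.16 times its value with 24 mice. These genes were called on the 24 mice, of which 21 enter both fits. Their choice thus favours kept signs, similar sizes and small unadjusted p. The median size was 0.55 without the 3 mice, against 0.58 with them, and the median standard error was 0.144, against 0.130. Their adjusted p had a median of 0.169 and a maximum of 0.229. Leaving out 4 mice, those over 0.5 log2 units, called 19 genes, and leaving out wild type mouse 14 alone, the mouse over 2 log2 units, called 5. With the mean of the pancreas genes as a covariate 5 genes were called. Wild type mouse 14 dominates that mean (6.24 above the median array, next 1.48), so this fit is close to leaving that mouse out.

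**Figure D4:**
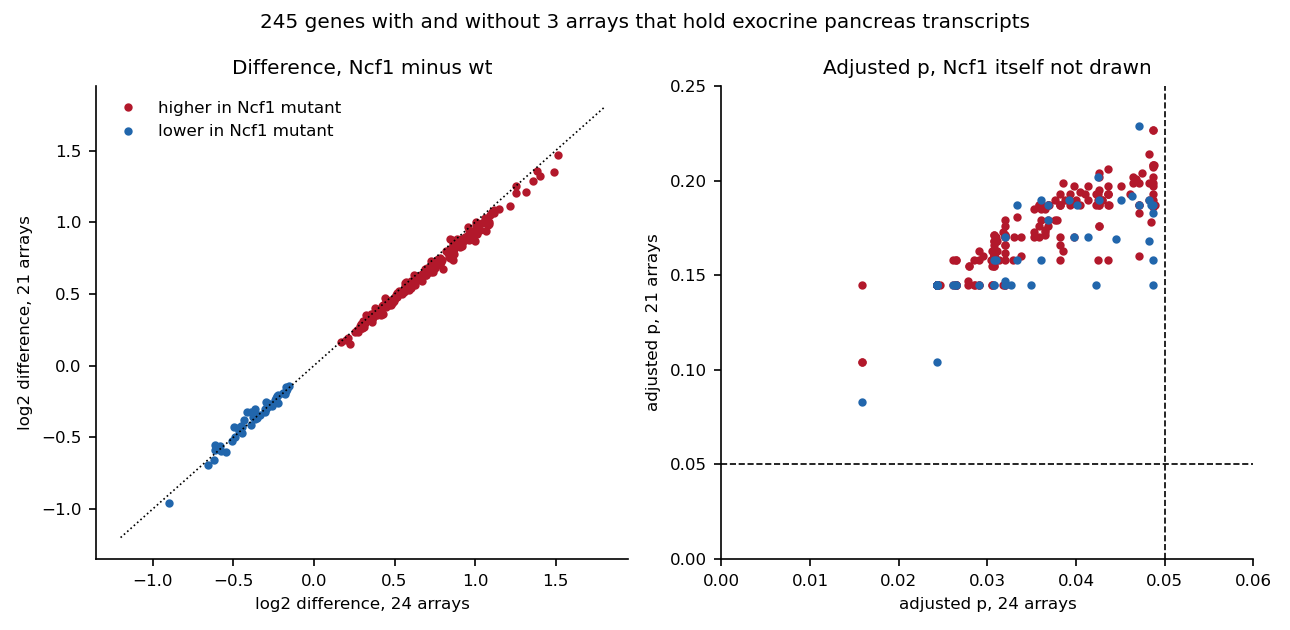
For the 245 called genes, the log2 difference (left) and the adjusted p (right, linear axes, Ncf1 not drawn) with all 24 mice on the horizontal axis and with the 21 mice outside the pancreas set on the vertical axis; dashed lines mark the threshold of 0.05. Differences lie along the dotted line of equality, while adjusted p-values rise to between 0.0829 and 0.229.

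The pancreas genes themselves did not pass the test. All 33 differences were below 0 and 0 were called, 0 with an unadjusted p under 0.05, with a median of -0.50 over both experiments, with -1.15 for experiment I and 0.07 for experiment II. Klk1, a tissue kallikrein, gave -0.65 ± 0.39, and Clps gave -0.40 ± 0.78. Without the 3 mice the median was 0.05.

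Calls were also lost on leaving out mice without pancreas transcripts. Leaving out each of the 24 mice in turn gave between 5 and 458 calls, with a median of 126. Leaving out any of 6 mice left 5 or 6 calls: Ncf1 mutant mouse 11 of experiment II, and wild type mice 13, 14, 16 and 17 (experiment I) and 24 (experiment II). Of these 6, 2 held pancreas transcripts, wild type mice 14 and 16. Their red cell membrane means were 9.38 in the mutant, the highest of all 24 mice, and 7.71 to 8.06 in the 5 wild type mice. Wild type mouse 20 of experiment II was also low, at 7.77, yet leaving it out left 70 calls. A link between this group and the counts was not tested. Leaving out wild type mouse 22 of experiment II, at 9.02 the highest wild type mouse for that group, raised the count to 458, and leaving out Ncf1 mutant mouse 14 of experiment II, at 8.49 the lowest mutant, raised it to 432. The 5 genes called in all 24 of these fits were Ncf1, Cd207, Ccnf (cyclin F, 0.36 ± 0.06), Tedc1 (a centriole protein, 0.29 ± 0.05) and Prss34 (a protease of basophils and mast cells, 0.76 ± 0.13). Prss34 had levels of 7.12 to 8.12 in Ncf1 mutant and 6.58 to 7.01 in wild type spleens of experiment I, and 7.10 to 7.97 in Ncf1 mutant and 6.39 to 7.30 in wild type spleens of experiment II. These 5 also had the 5 smallest adjusted p, with 0.0159 for each but Ncf1, and they were picked out after their values were seen.

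**Figure D5:**
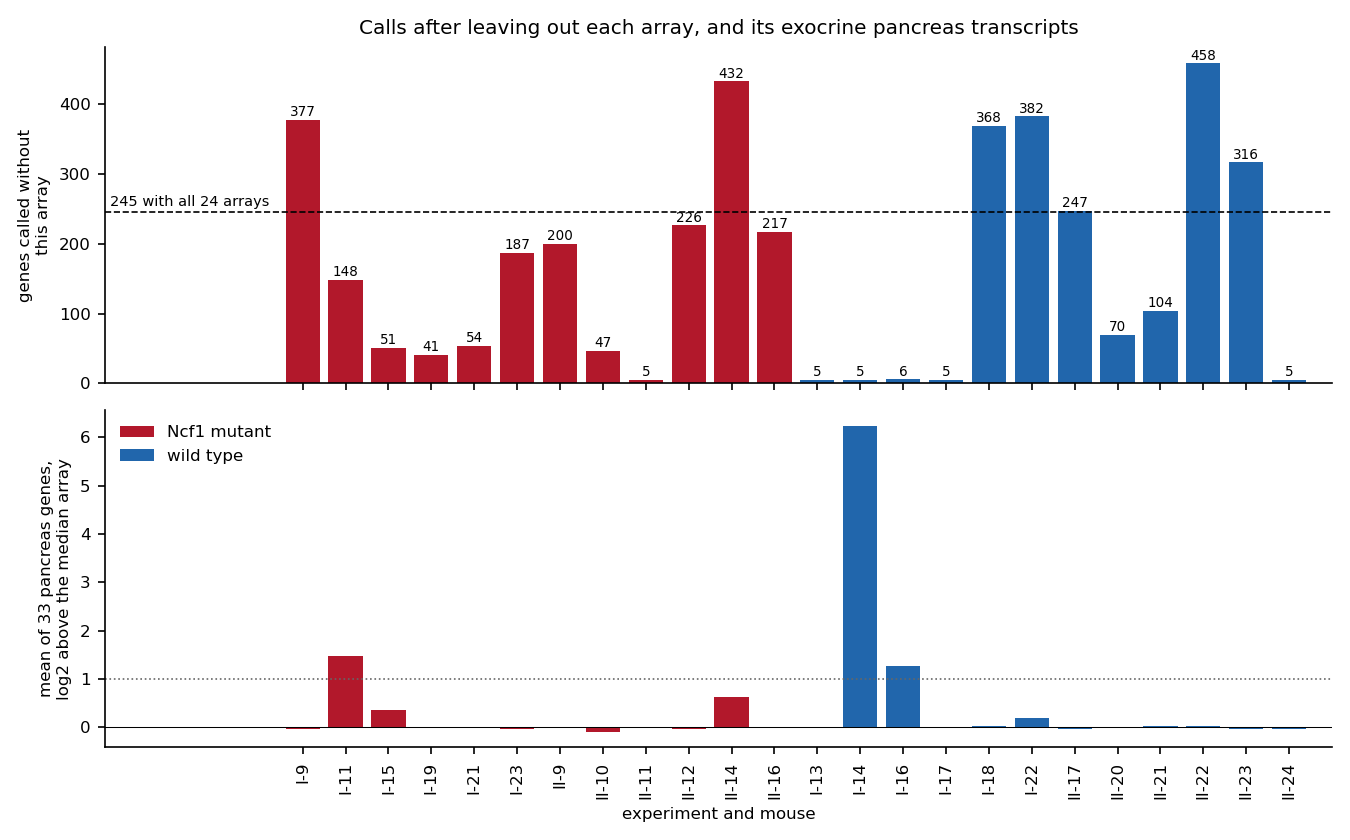
Genes called after leaving out each of the 24 arrays (upper bars, dashed line at 245 for all arrays) and the mean of 33 exocrine pancreas genes of that array in log2 units above the median array (lower bars, dotted line at 1), with Ncf1 mutant mice on the left in red and wild type mice on the right in blue. Calls drop to 5 or 6 for 6 arrays, and pancreas transcripts exceed 1 in 3, of which wild type mouse 14 of experiment I is the highest at 6.24.

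Without the 3 mice that stood apart on the first principal component 177 genes were higher (1.07%) and 61 lower (0.368%), and 155 of the 245 calls were kept. Without both sets of mice 2 genes were called, with 1857 at an unadjusted p under 0.05. A fit of all 48 spleen arrays, in which the spread is shared with the 24 mice of day 44, called 412 genes at day 15 and kept 226 of the 245. Less the mice of either day with pancreas transcripts, 44 arrays remained and 33 genes were called, 33 of them among the 245.

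Day 44 gave a comparison in other mice of the same strains. There 700 genes were higher (4.22%) and 566 lower (3.41%) in Ncf1 mutant spleens. All 245 genes called at day 15 had the same sign at day 44, and 210 were called there, which is 85.7% of the day 15 calls and 16.6% of the day 44 calls. Mpo differed by 2.23 at day 44 against 1.36 at day 15, Ltf by 2.21 against 1.49, and Cd8b1 by -1.25 against -0.62, while Tal1 differed by 0.91 against 1.11 and Prc1 by 0.85 against 1.09. The median of the primary granule genes was 1.67 at day 44 and 0.97 at day 15, and that of the red cell membrane genes was 0.58 at day 44 and 0.64 at day 15. The test of the difference between days called 0 genes with limma. An unadjusted p under 0.05 was found for 364 of 16593 genes, a smaller share than that threshold. The smallest p-values in it belonged to Ccno, Ankrd33b, Olfr998, Mapk13 and Dusp4, with an adjusted p of 1 for each. Mapk13, a stress activated kinase, differed by 0.75 at day 44 and 0.27 at day 15.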

How the data were processed

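Spleen RNA of 24 mice was amplified to labelled cRNA after globin removal and hybridised to Illumina bead arrays, per the labels' protocols. Intensity is on a linear scale, not log2, in the table the authors deposited, which covers 25697 probes. The spleen arrays already shared 1 distribution (median 82.2), and the submitters' processing notes name limma with no version. The background correction is not given in the sources used here. No 2 arrays were duplicates (highest correlation 0.996).

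Log2 was taken with no further normalisation. Probe symbols came from the platform annotation: 23978 probes had 1 gene, 0 several and 1719 none, and 23962 matched an Entrez identifier of GRCm38.p6. The probe with the highest mean over the 24 arrays stood for its gene. Genotype and experiment were fitted with lmFit and eBayes in limma 3.58.1 (R 4.3.3), with Benjamini-Hochberg adjustment, after a check on simulated data. Labels number the mice within an experiment, and 1 array per mouse was the replicate.

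Genes named were Ncf1 and oxidase genes, the 15 largest rises and 15 largest falls of equal sign in experiments I and II, for each list at most 4 called members (2 by smallest p where none passed), and 5 per interaction. A few of these are not printed, and Cd207, Ccnf, Tedc1 and Prss34 lie outside the rule and were chosen after their values were seen. The comparison, the lists (686 of 763 symbols measured) and the alternatives were chosen with earlier results of these data known. The exocrine pancreas threshold was 1 log2 unit, with 0.5 and 2 as alternatives. Promoters came from RefSeq.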

Additional observations from a re-analysis of the deposited data

How the results depend on the processing

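Counts depended strongly on which mice and which experiment term entered. All 245 called genes kept their sign under every alternative in which they were tested, which their choice in the same mice favours. Against 197 genes higher and 48 lower, limma called 345 and 93 when restricted to genes above the median level, 10 and 4 with no experiment term, and 0 and 1 in experiment I alone and likewise in experiment II alone. The fit of 48 spleen arrays gave 321 and 91, and array weights gave 272 and 103. Without mice over 1 log2 unit of exocrine pancreas transcripts the counts were 0 and 1, over 0.5 units 10 and 9, over 2 units 3 and 2, and with those transcripts as a covariate 3 and 2. The fit over 2 units and the covariate fit both rest mainly on wild type mouse 14 of experiment I. Chosen after seeing the data, a fit without both sets of mice gave 0 and 2, 48 arrays with an experiment term for each day 374 and 139, and 48 arrays less those with pancreas transcripts 22 and 11. Leaving out each mouse in turn gave 3 to 360 higher and 2 to 98 lower. The cause of these moves was not tested. Some of these fits held fewer mice or genes, but the fits of 48 spleen arrays held more mice. Leaving out a single mouse raised the counts in some fits and lowered them in others. Every probe, normexp with an offset of 50, 4 groups, trended robust variances, and leaving out mice 21, 22 and 23 of experiment I (chosen after seeing the data) kept both counts within 1.5 times. Renewed quantile normalisation and centring gave the same 197 and 48. They could hardly differ, because the spleen arrays already shared 1 distribution, so they say nothing on robustness. The fall of Ncf1 lay between 0.85 and 0.96 on the log2 scale, with an adjusted p of at most 0.00616. The interactions with experiment and with day each called 0 genes in limma with trended robust variances, with array weights and without mice over 1 log2 unit of pancreas transcripts. No paired analysis was possible because the mice of the 2 genotypes share no replicate number that the labels tie to a common source. Levels near the array median limit what low genes, such as mutant Ncf1, can show.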
